A study of Rattus norvegicus with 6 samples.

Results

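The 8 genes followed here in rat myocardium encode proteins of neutrophil granules and alarmins: S100a8, S100a9, Retnlg, Lcn2, Ngp, Camp, Mpo and Elane. They were taken as the rows of the gene table that carry these symbols, which gave 8 of 32623 genes, 1 row for each symbol. The table holds RNA sequencing of myocardial tissue in 6 samples from male wild-type (WT) rats, 3 labelled Sham and 3 labelled Ischemia, all with the time 30 min in their titles. The ischemia samples came from hearts in which a suture closed the left anterior descending coronary artery over a tube, with a raised ST segment in the electrocardiogram as the sign of occlusion, and the labels describe anesthesia, ventilation and a left thoracotomy for the male rats without a separate account of the sham operation. Strain, age and the part of the heart that was sampled are not given in the labels. The question was how far the messages of these 8 genes differed between the groups, and whether those of mature neutrophils and those of the early granule genes Mpo and Elane did so alike.

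Neutrophils fill their granules in sequence as they mature in the bone marrow. The primary granules come first and hold myeloperoxidase and serine proteases such as elastase, the secondary granules follow with lipocalin 2, cathelicidin and neutrophilic granule protein, and the messages of the primary granule proteins are mostly shut down before the cell enters the blood. The alarmins S100A8 and S100A9 pair into calprotectin, which fills the cytosol of mature neutrophils and acts on TLR4 once released, and their messages stay abundant in circulating cells. In the infarcted heart neutrophils are among the first blood cells to arrive.

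Library totals ran from 68529126 to 79591989 counts, so that 3 counts, taken as the floor of detection, amounted to 0.0377 to 0.0438 CPM (counts scaled by library size). Levels are given as FPKM, fragments scaled by gene length and by library size, which may be compared between genes. Fold changes are log2 of ischemia over sham from edgeR's quasi-likelihood test on the counts, ± SE, with Benjamini-Hochberg adjustment over the 13964 genes whose mean FPKM reached 0.5 and a threshold of 0.05. Samples differed in ways that the labels do not give: the summed FPKM of 6 atrial markers was 48457, 252 and 39432 in sham replicates 1, 2 and 3 and 9643, 2084 and 1288 in ischemia replicates 1, 2 and 3, and 4 Y-linked genes together had 26 counts in sham replicate 1 and from 1772 to 4366 in the remaining 5 samples, while the labels describe male rats. Fits without single samples and a fit with the mean log2 level of these atrial markers as a covariate are given with the results, and the part of the Y-linked difference was not tested otherwise. In tissue RNA, more cells of a type and more RNA per cell cannot be told apart.

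S100a8 and S100a9 encode the calprotectin subunits and had the highest levels of the 8 genes in ischemia replicate 2. The S100a8 gene (ENSRNOG00000011557, chromosome 2, 190073815-190074354, plus strand, in the coordinates of the deposited table, whose genome build is not named) had 3.09, 6.39 and 1.71 FPKM in sham replicates 1, 2 and 3 and 216, 1176 and 198 FPKM in ischemia replicates 1, 2 and 3. The groups were apart: the lowest ischemia level was 31.0 times the highest sham level, while the ischemia samples themselves spread 5.94-fold with replicate 2 on top. The mean rose from 3.73 ± 2.41 to 530.2 ± 559 FPKM (SD, n = 3 each), and the log2 fold change was 6.91 ± 1.07 with an edgeR adjusted p of 0.0311. Without ischemia replicate 2 it was 5.66 (edgeR adjusted p 0.0298) and without sham replicate 2 it was 7.72 (0.0820). The call was also lost without sham replicate 1 (edgeR adjusted p 0.159), sham replicate 3 (0.129) or ischemia replicate 3 (0.110).

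S100a9 (ENSRNOG00000011483, chromosome 2, 190097554-190100276, minus strand) followed its partner closely. It had 5.98, 11 and 4.98 FPKM in the sham samples and 242, 2224 and 241 FPKM in the ischemia samples, in the order of the replicates. Ischemia replicate 2 again stood above the other two, by 9.22-fold over the lowest, and the lowest ischemia level was 21.8 times the highest sham level. The mean rose from 7.34 ± 3.25 to 902.5 ± 1145 FPKM (SD, n = 3 each), with a log2 fold change of 6.72 ± 1.18 and an edgeR adjusted p of 0.0365. Without ischemia replicate 2 the log2 fold change was 4.94 with an adjusted p of 0.0234, so that the size of the rise rested in part on that sample. The call was lost without sham replicate 1, 2 or 3 (edgeR adjusted p 0.160, 0.0851 and 0.140) or ischemia replicate 3 (0.110). S100a9 exceeded S100a8 in every sample, with a ratio of the FPKM levels of 1.94, 1.73 and 2.91 in sham and 1.12, 1.89 and 1.22 in ischemia. Among all genes of each library ordered by FPKM, S100a9 stood between rank 4470 and rank 8076 in sham and at ranks 381, 29 and 358 in ischemia.

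**Figure D1:**
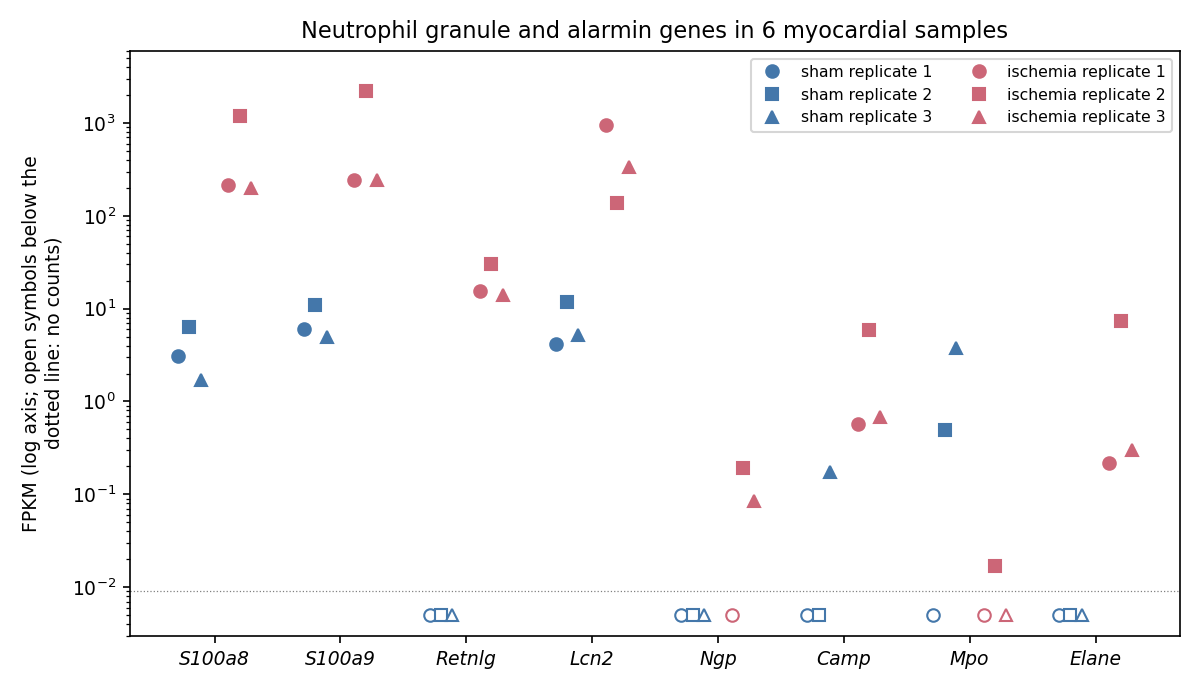
FPKM of the 8 genes on a log axis, with 1 symbol for each of the 3 sham (blue) and 3 ischemia (red) samples and open symbols under the dotted line for samples with no counts. S100a8, S100a9, Retnlg and Lcn2 have all ischemia samples above all sham samples, and Mpo has its highest level, 3.78 FPKM, in sham replicate 3.

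The promoters of the genes are shown because the 8 genes share a cell type and the regulators C/EBP, PU.1 and NF-kB are well known in myeloid cells. Promoters from RefSeq (rat assembly GRCr8) were matched for 6 of the 8 genes, and those of S100a8 and Elane were not used here. The 250 bases before the transcription start were searched on both strands for TTGCNNAA (C/EBP) and for GAGGAA (PU.1). The NF-kB letters, searched on both strands too, were GGGA and CC with 4 bases of any kind between them. The TATA box was searched as TATAAA on the strand of the gene. Of 33469 rat promoters of the same length, 9.217% held the C/EBP letters, 23.34% the PU.1 letters, 16.43% the NF-kB letters and 8.055% the TATA letters. The promoters of 3 genes are printed 5′ to 3′ on the strand of the gene, with these letters in capitals: S100a9, the more abundant alarmin subunit, at chr2:178490623-178490872 (minus strand), Lcn2, the most abundant of the 3 secondary granule genes among the 8, at chr3:36081781-36082030 (minus strand), and Mpo, the early granule gene, at chr10:73092152-73092401 (plus strand).
S100a9: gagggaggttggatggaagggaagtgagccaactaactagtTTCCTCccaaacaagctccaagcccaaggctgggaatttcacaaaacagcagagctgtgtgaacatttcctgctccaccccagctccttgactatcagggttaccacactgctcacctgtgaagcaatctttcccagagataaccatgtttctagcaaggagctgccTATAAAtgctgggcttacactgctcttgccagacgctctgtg
Lcn2: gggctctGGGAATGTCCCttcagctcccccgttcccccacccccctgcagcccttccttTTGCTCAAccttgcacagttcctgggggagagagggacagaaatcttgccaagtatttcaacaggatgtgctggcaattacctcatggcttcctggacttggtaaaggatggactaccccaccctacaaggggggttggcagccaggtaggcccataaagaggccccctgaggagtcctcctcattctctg
Mpo: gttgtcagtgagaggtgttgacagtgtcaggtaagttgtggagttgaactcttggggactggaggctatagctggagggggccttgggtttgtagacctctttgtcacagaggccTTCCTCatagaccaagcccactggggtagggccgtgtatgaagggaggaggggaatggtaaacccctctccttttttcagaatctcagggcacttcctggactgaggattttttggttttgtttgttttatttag

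In the S100a9 promoter the PU.1 letters began 209 bases before the start on the opposite strand and the TATA letters 42 bases before it. The Lcn2 promoter had the C/EBP letters at 191 bases and the NF-kB letters at 243 bases before the start, the latter also read on the other strand at 242 bases in an overlapping match. Mpo had the PU.1 letters at 135 bases on the opposite strand. Ngp had the C/EBP letters at 179 and 52 bases, and none of the letters searched were in the windows of Retnlg and Camp. These matches describe letters only, and the data hold no measurement of factor binding.

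Retnlg, a small secreted protein of the resistin family made by rodent neutrophils (ENSRNOG00000001943, chromosome 11, 54513102-54514441, minus strand), was not detected in sham and was present in every ischemia sample. It had 0 counts in each sham library and 434, 765 and 336 counts in ischemia replicates 1, 2 and 3, or 15.6, 30.3 and 14.1 FPKM (20.0 ± 8.99, SD, n = 3). Against a floor of 3 counts in each sham library it was at least 172-fold higher, and at least 128- to 198-fold higher with 1 ischemia sample left out. The edgeR adjusted p was 0.0248, and it was 0.0819 to 0.157 without sham replicate 1, 2 or 3 or ischemia replicate 3. Its ischemia samples had a narrower spread than those of S100a8 and S100a9, and Retnlg stood at 6.45%, 1.36% and 5.83% of the S100a9 level in ischemia replicates 1, 2 and 3.

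Lcn2 encodes lipocalin 2, which binds bacterial siderophores and is also made by epithelia and by inflamed tissue. The gene (ENSRNOG00000013973, chromosome 3, 11414186-11417546, minus strand) had 4.11, 11.7 and 5.20 FPKM in the sham samples and 952, 137 and 337 FPKM in ischemia replicates 1, 2 and 3. All ischemia samples were at least 11.7 times the highest sham sample, but their order differed from that of the alarmins: ischemia replicate 1 was highest and ischemia replicate 2 lowest, 6.94-fold apart. The mean rose from 7.0 ± 4.09 to 475 ± 425 FPKM (SD, n = 3 each), with a log2 fold change of 5.94 ± 0.99 and an edgeR adjusted p of 0.0351. It was 4.94 with an adjusted p of 0.0189 without ischemia replicate 1, and 6.71 with an adjusted p of 0.0820 without sham replicate 2. The call was also lost without sham replicate 1 (edgeR adjusted p 0.159), sham replicate 3 (0.140) or ischemia replicate 3 (0.113).

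The ratio of Lcn2 to S100a9 FPKM was 0.688, 1.06 and 1.04 in sham and 3.93, 0.0617 and 1.40 in ischemia, so that the genes kept no common proportion among the ischemia samples. Ischemia replicate 1 also had the highest summed level of lung and airway messages. Scgb1a1, the secretoglobin of airway club cells, had 0.23, 0.23 and 15.1 FPKM in sham and 394, 0 and 0.19 FPKM in ischemia, and Sftpa1 and Sftpc, surfactant proteins of the lung, had 8.66 and 6.68 FPKM in ischemia replicate 1 and at most 0.0989 FPKM in any other sample. Summed over the 7 markers of lung and airway the level was 1.81, 1.94 and 19.4 FPKM in sham and 444, 61.1 and 16.1 FPKM in ischemia. Of the 5 tested, 1 rose, against 5.18% of all tested genes: Napsa, an aspartic protease of lung and kidney (log2 fold change 3.79 ± 0.70, edgeR adjusted p 0.0382). Napsa had 10.2, 60.9 and 15.9 FPKM in ischemia and 1.58 to 2.44 in sham. It was highest in ischemia replicate 2, as S100a9 was, and not in replicate 1 as Scgb1a1, Sftpa1 and Sftpc were. Napsa made up most of the sum in ischemia replicates 2 and 3. Sham replicate 1 had the lowest lung and airway sum, 1.81 FPKM. Without ischemia replicate 1 alone the Lcn2 log2 fold change was 4.94 (edgeR adjusted p 0.0189). Without ischemia replicate 1 and sham replicate 1 together, a choice made after seeing the data, it was 4.61 (edgeR adjusted p 0.0792). In that last fit 0 genes of the whole table passed.

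**Figure D2:**
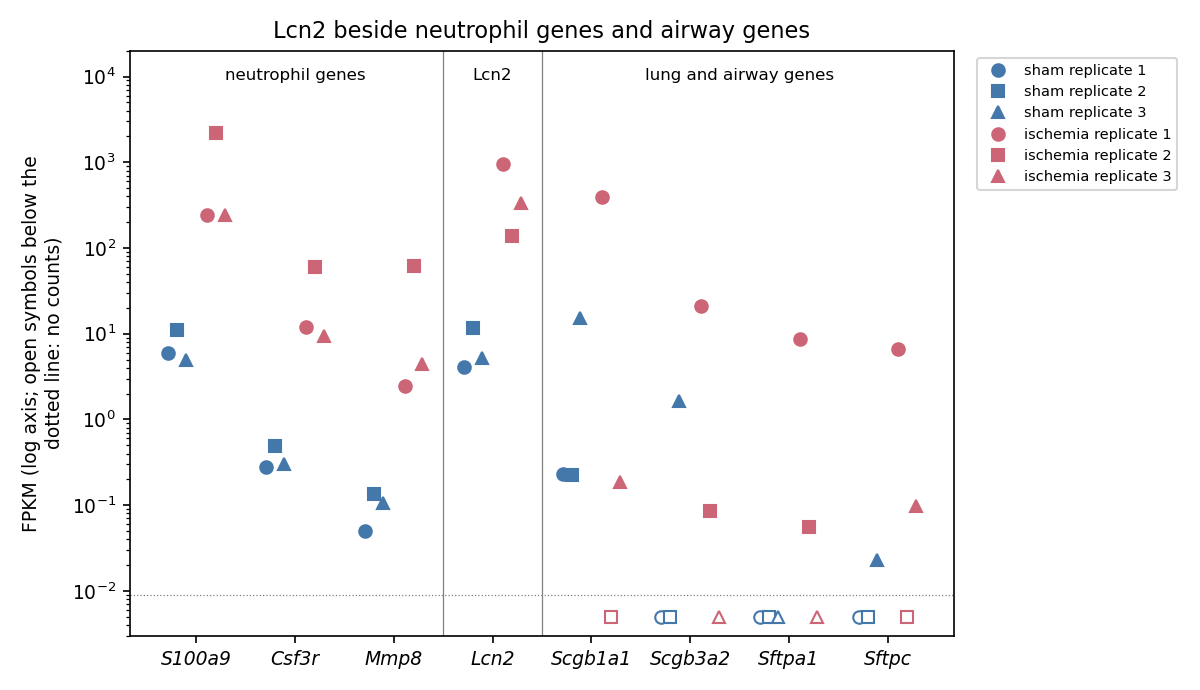
FPKM of Lcn2 on a log axis beside the neutrophil genes S100a9, Csf3r and Mmp8 (left) and the lung and airway genes Scgb1a1, Scgb3a2, Sftpa1 and Sftpc (right), with 1 symbol per sample and open symbols for samples with no counts. Ischemia replicate 2 (red square) is highest for the neutrophil genes, at 2224 FPKM for S100a9, and ischemia replicate 1 (red circle) is highest for Lcn2, at 952 FPKM, and for the airway genes.

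The other secondary granule genes were scarce. Camp encodes the precursor of the antimicrobial cathelicidin peptide (ENSRNOG00000020733, chromosome 8, 117930546-117932518, minus strand) and had 0, 0 and 10 counts in sham and 36, 326 and 37 counts in ischemia, or at most 0.17 FPKM against 0.57, 5.84 and 0.69 FPKM. The groups were apart, with ischemia replicate 2 far above the rest, but the log2 fold change of 5.16 ± 1.69 did not pass (edgeR adjusted p 0.102). It was 9.97 without sham replicate 3, the sole sham sample with counts, and 3.39 without ischemia replicate 2. Ngp, neutrophilic granule protein (ENSRNOG00000024330, chromosome 8, 118662335-118665699, plus strand), had 0 counts in sham and 0, 16 and 7 counts in ischemia, at most 0.19 FPKM. It was under the limit for the test, and in an edgeR fit without that limit its adjusted p was 0.226. Over the ischemia group it was at least 2.66-fold above the floor of 3 counts per sham library, and at least 1.26-fold without ischemia replicate 2.

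The early granule genes went different ways from each other, and neither passed. Elane encodes neutrophil elastase (ENSRNOG00000033685, chromosome 7, 12638322-12640232, minus strand) and had 0 counts in each sham library and 18, 530 and 21 counts in ischemia replicates 1, 2 and 3, or 0.22, 7.30 and 0.30 FPKM. It was at least 64.6-fold above the floor of 3 counts per sham library, a bound that fell to 6.57-fold without ischemia replicate 2, and its edgeR adjusted p was 0.0875. Nearly all of its counts came from that sample. The Elane interval lies inside the annotated span of Arhgap45 on the same strand (chromosome 7, 12541061-12741296), which had 848, 1093 and 1307 counts in sham and 2367, 9952 and 3241 in ischemia (log2 fold change 2.15 ± 0.55, edgeR adjusted p 0.0648). The counts of Elane are therefore uncertain, because reads of the longer gene could fall in its interval.

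Mpo encodes myeloperoxidase (ENSRNOG00000008310, chromosome 10, 75087892-75098260, plus strand) and had 0, 119 and 808 counts in sham replicates 1, 2 and 3 and 0, 4 and 0 counts in ischemia replicates 1, 2 and 3. Its FPKM was 0, 0.50 and 3.78 in sham and 0, 0.017 and 0 in ischemia, so that the groups overlapped at no detection and the values rested on 2 sham samples. edgeR gave a log2 fold change of -7.82 ± 2.53 (adjusted p 0.0993), which was -5.59 (adjusted p 0.226) without sham replicate 3 and -11.28 (adjusted p 0.189) without ischemia replicate 2. Mpo was one of 186 tested genes that were absent from a library and reached 100 counts or more in a second library of their own group. The next gene downstream, Lpo, the lactoperoxidase gene on the other strand (2124 bases away), had 0, 5 and 40 counts in sham and 0, 0 and 10 in ischemia. S100a8 and S100a9 were not raised in sham replicate 3, where Mpo was highest: they had their lowest levels of all samples there.

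Of the 8 genes, 4 rose (S100a8, S100a9, Retnlg and Lcn2) and 0 fell, against 5.18% of all tested genes that rose and 1.53% that fell by the same edgeR test. The FPKM of 6 of the 7 tested genes did not overlap between the groups with ischemia higher, against 23.6% of all tested genes, and 0 had ischemia lower without overlap, against 15.0%. Retnlg, Camp and Elane reached the limit of 0.5 FPKM through the ischemia samples alone and Mpo through the sham samples alone, so that these genes had to differ to be tested and their number adds no support. In exact permutation tests of the log2 FPKM levels (two-sided), p was 0.1 for S100a8, S100a9, Retnlg, Lcn2, Camp and Elane, the smallest value that 3 against 3 samples allow, and 0.4 for Ngp and Mpo. The number that rose was 4 without ischemia replicate 1 and without ischemia replicate 2. It was 0 without sham replicate 1, 2 or 3 and without ischemia replicate 3, fits in which no gene of the whole table passed, while 3020 to 3809 genes had an unadjusted p under 0.05. With the mean log2 level of the 6 atrial markers as a covariate it was 0 as well, with 0 genes of the whole table passing and 2497 at an unadjusted p under 0.05, and the edgeR adjusted p was 0.155 for S100a8, 0.189 for S100a9, 0.155 for Retnlg and 0.166 for Lcn2. The log2 fold changes in that fit were 5.91 for S100a8, 5.52 for S100a9 and 5.92 for Lcn2, against 6.91, 6.72 and 5.94 without the covariate, and for Retnlg, whose fitted value depends on the prior count, 11.59 against 11.94. The log2 fold changes of the 4 genes were above 0 in all of these fits.

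Set side by side, the summed level of the 6 genes of later stages, most of it S100a8, S100a9 and Lcn2, exceeded that of the early genes in every sample. Ngp was below Elane in all 3 ischemia samples, and Camp was below Elane in ischemia replicate 2. The summed FPKM of S100a8, S100a9, Retnlg, Lcn2, Ngp and Camp was 13.2, 29.1 and 12.1 in sham and 1427, 3574 and 791 in ischemia. That of Mpo and Elane was 0, 0.497 and 3.78 in sham and 0.219, 7.32 and 0.301 in ischemia. Of both sums, the early genes thus made up 0%, 1.68% and 23.8% in sham replicates 1, 2 and 3, and 0.0154%, 0.204% and 0.0381% in ischemia replicates 1, 2 and 3. The range in sham overlapped that in ischemia because sham replicate 1 had no counts of either early gene, and the share in sham consisted of Mpo whereas that in ischemia was nearly all Elane.

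Counts on the 8 genes rose from 609, 1630 and 1392 in sham to 87521, 132103 and 36016 in ischemia, or from 0.000826% to 0.00208% of a library to 0.110%, 0.183% and 0.0526%. Their makeup varied widely within each group. S100a8 and S100a9 held 54.2%, 41.0% and 17.1% of these counts in sham and 19.7%, 91.8% and 39.8% in ischemia. Lcn2 held 45.8%, 51.7% and 24.1% in sham and 79.7%, 6.92% and 59.1% in ischemia. Counts were present for 3, 4 and 5 of the 8 genes in sham replicates 1, 2 and 3 and for 6, 8 and 7 in ischemia replicates 1, 2 and 3.

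**Figure D3:**
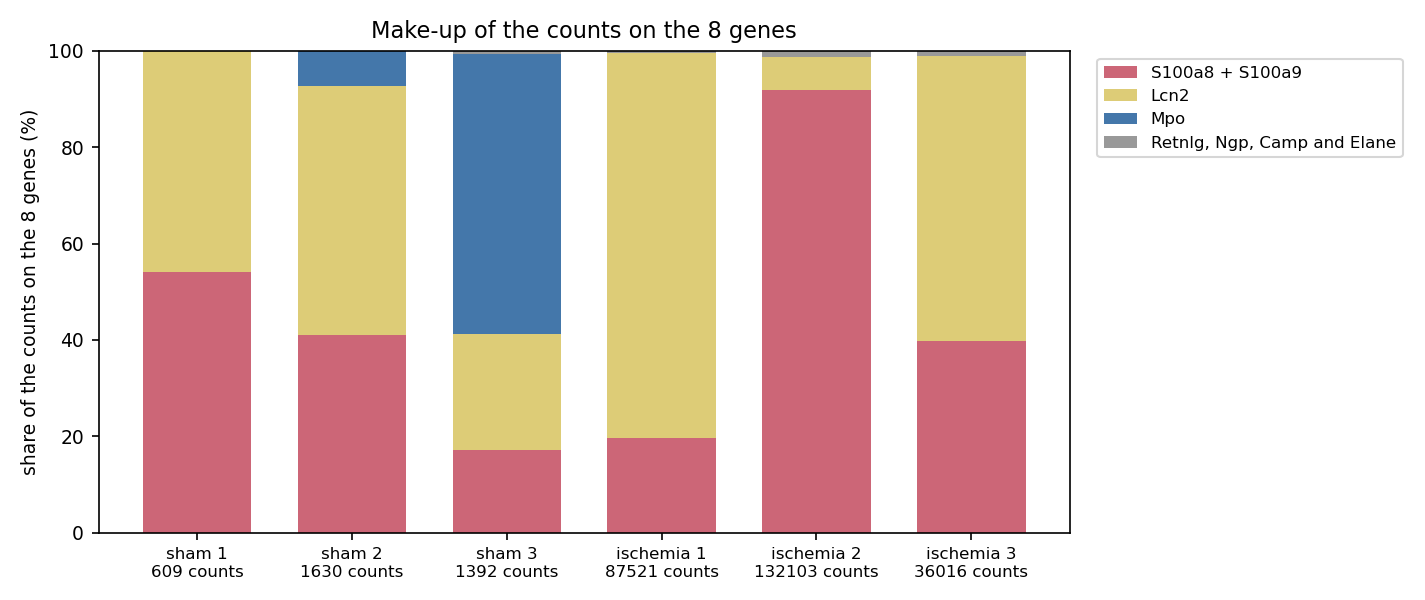
Share (%) of the counts on the 8 genes held by S100a8 with S100a9, by Lcn2, by Mpo and by the remaining genes, 1 bar per sample with the number of counts under it. Lcn2 holds 79.7% in ischemia replicate 1 and 6.92% in ischemia replicate 2, and Mpo is visible in sham replicates 2 and 3 alone.

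Other genes of the neutrophil granules were read by the stage of the granule. Of 13 further primary granule genes in the table, 9 had 0 counts in all samples and 1 could be tested: Ctsc, the dipeptidyl peptidase that activates the granule proteases and that many tissues express, had a log2 fold change of 0.48 ± 0.36 (edgeR adjusted p 0.384). Prtn3, the proteinase beside Elane in the primary granule, had at most 0.0478 FPKM. Of 12 further secondary and tertiary granule genes, 10 were tested, 7 rose and 0 fell (5.18% and 1.53% of all tested genes), with a median log2 fold change of 3.69. Of these 10, Mmp8, Mmp9, Pglyrp1 and Cd177 reached the limit of 0.5 FPKM through the ischemia samples alone and so had to differ to be tested, and the count and the median are no support. Cd177 had 706 counts in ischemia replicate 1, 0 in ischemia replicates 2 and 3, and 12, 0 and 54 in sham. Its log2 fold change of 3.28 ± 2.63 did not pass (edgeR adjusted p 0.407). Qpct had a log2 fold change below 0 (-0.96 ± 0.47, edgeR adjusted p 0.204). The log2 fold change was 7.63 ± 1.55 for the collagenase Mmp8, 7.54 ± 1.52 for the gelatinase Mmp9, 6.59 ± 0.99 for the lectin Fcnb and 4.09 ± 0.72 for the lysozyme Lyz2, which macrophages also make (edgeR adjusted p 0.0445, 0.0444, 0.0303 and 0.0366). Mmp8 had 0.05 to 0.13 FPKM in sham and 2.44, 61.8 and 4.43 FPKM in ischemia, with replicate 2 on top as for the alarmins. Ltf, the lactoferrin gene, had 0 counts in all 6 samples.

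Of 17 surface and cytosol genes of neutrophils, 14 were tested, 9 rose and 0 fell (5.18% and 1.53% of all tested genes), with a median log2 fold change of 5.60. Of the 14, 8 reached the limit through the ischemia samples alone, and the same holds for their count and median. Among the genes that did not pass, G0s2 had -0.26 ± 0.38 and Ncf1 0.23 ± 0.66 on the log2 scale (edgeR adjusted p 0.657 and 0.830). Cxcr1 had 0 counts in every sample. Il1r2, the decoy receptor for interleukin 1, had 0.06 to 0.29 FPKM in sham and 11.9, 270.4 and 28.9 FPKM in ischemia, and a log2 fold change of 8.85 ± 1.52 (edgeR adjusted p 0.0361). The C-type lectin Clec4d and the activating receptor Trem1 had log2 fold changes of 7.72 ± 1.49 and 6.33 ± 1.25 (edgeR adjusted p 0.0418 and 0.0430). In the 3 lists of other granule and surface genes together 16 rose, and the number was 20 without ischemia replicate 1, 14 without ischemia replicate 2 and 0 with any other single sample left out. Of 3 tested genes of dividing cells, 0 rose or fell, and the most abundant, Cdk1 and Birc5, had log2 fold changes of 0.05 ± 0.37 and -0.23 ± 0.46 (edgeR adjusted p 0.936 and 0.743).

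**Figure D4:**
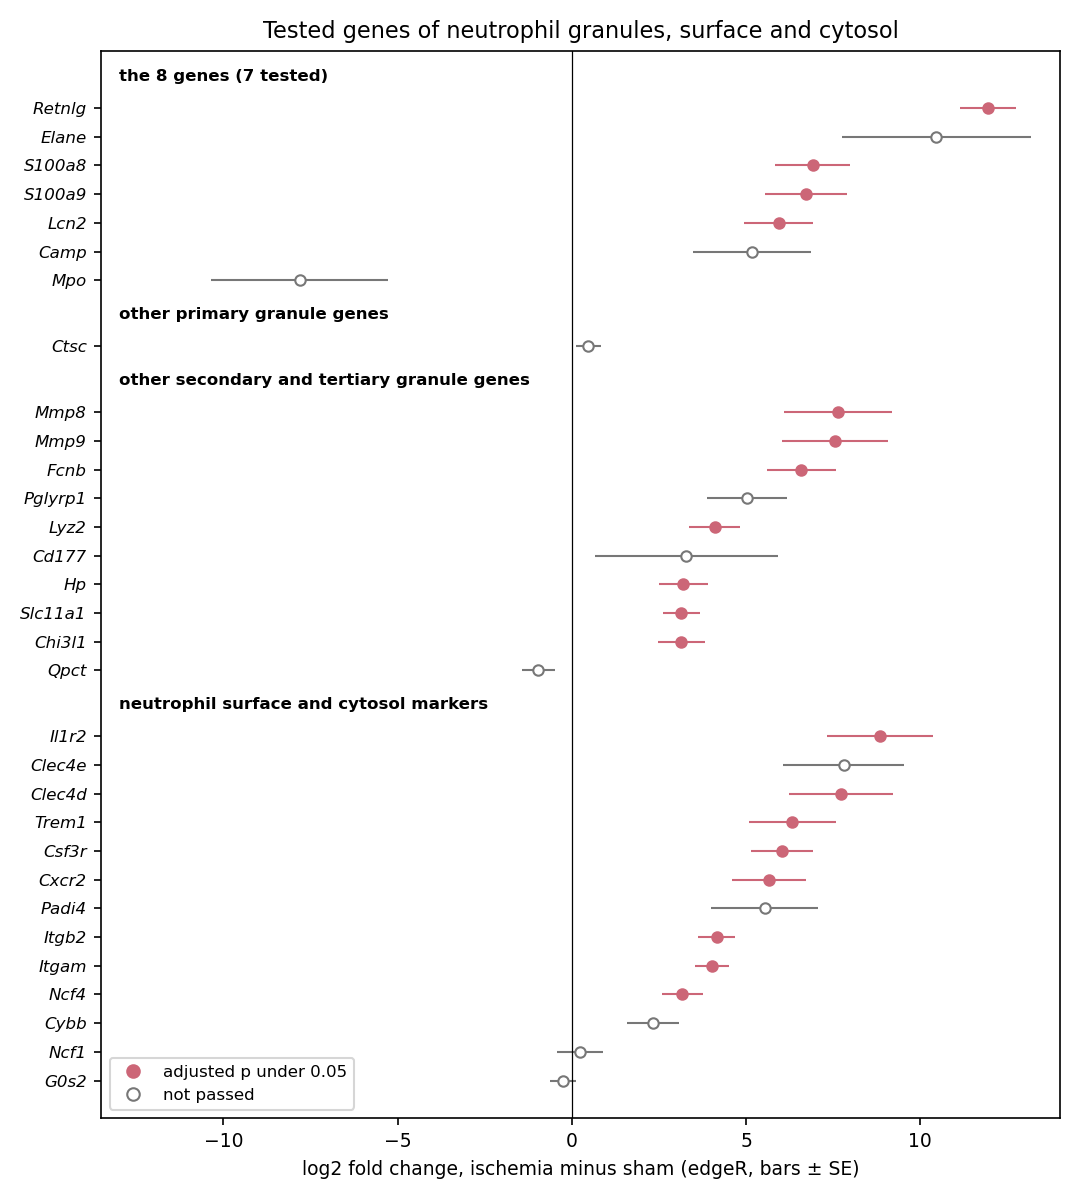
Log2 fold change of ischemia over sham from edgeR (points) with ± SE (bars) for tested genes among the 8 and among other granule, surface and cytosol genes, with filled points for an adjusted p under 0.05. Secondary and tertiary granule genes and surface genes lie mostly to the right of 0, Ctsc is at 0.48, and Mpo is at -7.82 with a wide bar; Retnlg and Elane had 0 counts in sham and their fitted values depend on the fit's prior count.

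The alarmins are members of larger families, in which the other tested genes had smaller log2 fold changes. Of 9 tested S100 genes other than S100a8 and S100a9, 2 rose and 0 fell (5.18% and 1.53% of all tested genes). Their median log2 fold change was 0.0085, against -0.0015 over all tested genes. S100b was lower without overlap between the groups (-3.51 ± 0.83, edgeR adjusted p 0.0543), as were 15.0% of all tested genes. S100a10 and S100a11 were higher without overlap (1.54 ± 0.39 and 1.80 ± 0.40, edgeR adjusted p 0.0623 and 0.0510), as were 23.6% of all tested genes. S100a4, a calcium-binding protein of motile cells, had 59.2, 32.1 and 88.8 FPKM in sham and 183, 590 and 352 FPKM in ischemia (log2 fold change 2.58 ± 0.49, edgeR adjusted p 0.0397). S100a6 had a log2 fold change of 1.39 ± 0.30 (edgeR adjusted p 0.0488). Retn, the resistin gene and closest tested relative of Retnlg, had 3.13, 6.87 and 37.3 FPKM in sham and 8.22, 0.12 and 0 FPKM in ischemia, an overlap with a log2 fold change of -2.51 ± 2.0 (edgeR adjusted p 0.404). It was highest in sham replicate 3, as Mpo was, and within ischemia it was highest in replicate 1.

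**Figure D5:**
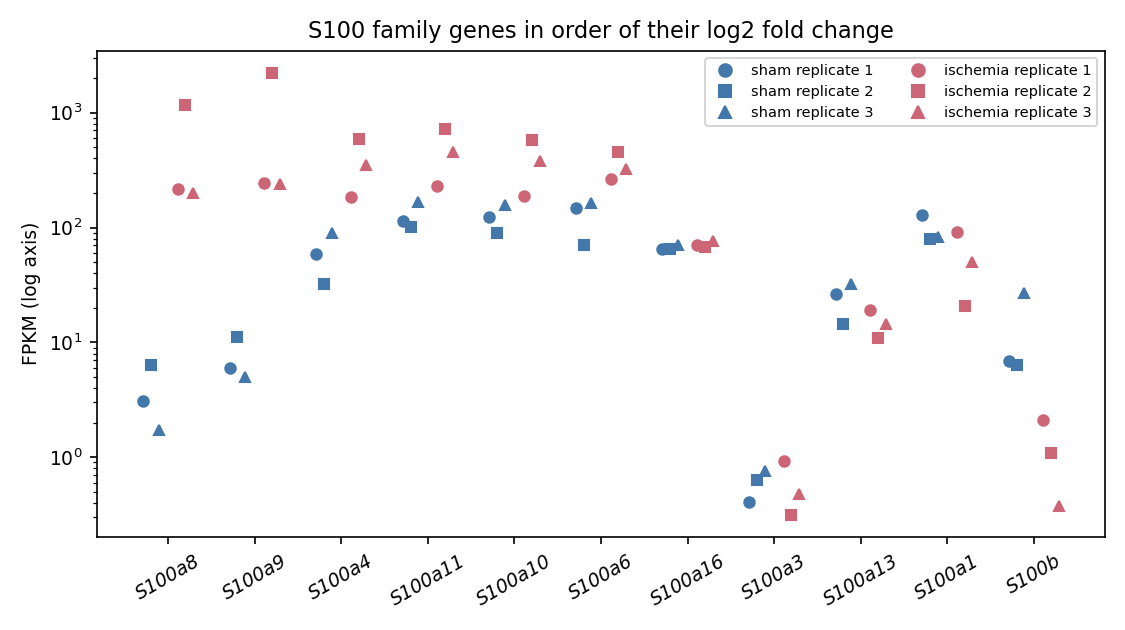
FPKM of S100a8, S100a9 and the other tested S100 genes on a log axis, from left to right by falling log2 fold change, with 1 symbol per sample. S100a8 and S100a9 start from 1.71 to 11 FPKM in sham, under S100a4 and S100a6, and exceed both in ischemia replicate 2.

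Of 4 other alarmin genes tested, 0 rose or fell, and the most abundant, Hmgb2 and Il33, had log2 fold changes of 0.44 ± 0.42 and -0.62 ± 0.55 (edgeR adjusted p 0.485 and 0.454). Of 5 tested receptor genes for the 8 products, 1 rose, against 5.18% of all tested genes. That gene, Cd14, the co-receptor of TLR4, had 5.36, 5.20 and 7.28 FPKM in sham and 28.1, 118 and 43.7 FPKM in ischemia (log2 fold change 3.29 ± 0.53, edgeR adjusted p 0.0332).

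Markers of other cells were read beside these values for their whole lists. Red blood cell markers, which come with blood in the tissue, had summed levels of 4436 to 8132 FPKM in sham and 5231 to 10153 FPKM in ischemia, and 0 of 7 tested rose or fell (Hba-a1 log2 fold change 0.09 ± 0.28, Hbb 0.20 ± 0.37, edgeR adjusted p 0.836 and 0.726). Of 6 monocyte markers 2 rose, against 5.18% of all tested genes: Fcgr1a by 3.28 ± 0.71 and Cd68 by 2.17 ± 0.42 on the log2 scale (edgeR adjusted p 0.0491 and 0.0408). All 6 had log2 fold changes above 0 (49.9% of all tested genes), and 4 were higher without overlap (23.6%). The summed level of the list was 29.0 to 52.5 FPKM in sham and 88.0, 333 and 130 FPKM in ischemia. Of 8 resident macrophage markers 1 rose, against 5.18% of all tested genes: the haptoglobin receptor Cd163 (log2 fold change 1.40 ± 0.28, edgeR adjusted p 0.0445). Cd163 and Mrc1 were higher without overlap between the groups, against 23.6% of all tested genes. C1qa (-0.66 ± 0.15, edgeR adjusted p 0.0504) and C1qc (-0.42 ± 0.15, 0.115) were lower without overlap, against 15.0%. The summed levels of the list were 194 to 274 FPKM in sham and 188 to 265 FPKM in ischemia. Of 4 tested platelet markers 1 fell, against 1.53% of all tested genes: Gp1bb (log2 fold change -5.41 ± 1.03, edgeR adjusted p 0.0406). Pf4, the most abundant of the list, went the other way, with 20.8 to 53.2 FPKM in sham and 61.6 to 170 FPKM in ischemia. Its log2 fold change of 1.20 ± 0.46 did not pass (edgeR adjusted p 0.135). The summed levels of the list were 27.1 to 79.4 FPKM in sham and 63.8 to 173 FPKM in ischemia. No gene passed among 5 tested mast cell markers (Cma1 -1.24 ± 0.63 and Kit 0.55 ± 0.56 on the log2 scale, edgeR adjusted p 0.221 and 0.518), 6 T and B cell markers (Cd2 1.25 ± 0.52, Cd3g 1.01 ± 0.34, edgeR adjusted p 0.156 and 0.104) and 1 eosinophil marker, Siglec5 (0.05 ± 0.40, edgeR adjusted p 0.939). The 6 T and B cell markers all had log2 fold changes above 0, against 49.9% of all tested genes. Of the 6, 5 were higher without overlap between the groups, against 23.6% of all tested genes. The summed level of that list was 8.59 to 10.4 FPKM in sham and 18.7 to 27.4 FPKM in ischemia. The summed levels in sham and in ischemia were 11.9 to 33.6 and 15.8 to 20.2 FPKM for the mast cell list and 0.667 to 1.15 and 0.946 to 1.51 FPKM for the eosinophil list. The 8 ventricular cardiomyocyte markers had summed levels of 26734, 42131 and 25145 FPKM in sham and 23056, 11913 and 21863 FPKM in ischemia, lower in every ischemia sample than in any sham sample. Of the 8, 3 were lower without overlap, against 15.0% of all tested genes. Of the same 8, 0 passed (Actc1 -1.70 ± 0.40 and Tnnt2 -0.43 ± 0.43 on the log2 scale, edgeR adjusted p 0.0536 and 0.512). Of the 6 atrial markers 0 passed (Nppa -2.42 ± 1.66 and Myl4 -3.54 ± 2.33 on the log2 scale, edgeR adjusted p 0.337 and 0.321). With the atrial covariate the 4 genes no longer passed, with the log2 fold changes given above, and the part of the other cells in their levels was not tested.

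The genes most like S100a9 over the 6 samples, by Pearson's r of log2(CPM + 0.5), were Gch1 (r = 0.9986), Slc11a1 (0.9979), Csf3r (0.9978), Ogfod1 (0.9975) and Mmp9 (0.9973). Slc11a1 is a metal transporter of phagocytes, Csf3r the receptor for granulocyte colony-stimulating factor, Gch1 the first enzyme of tetrahydrobiopterin synthesis and Ogfod1 a hydroxylase of a ribosomal protein. These r values describe 6 points in 2 groups that share their libraries. Among the 8 genes themselves r was 0.996 for S100a8 with S100a9, 0.980 for Retnlg with S100a9, 0.830 for Lcn2 with S100a9, 0.982 for Camp with Elane and -0.601 for Mpo with S100a9, each over 6 samples. Mpo had 10 or more counts in 2 samples, too few to list its nearest genes.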

How the data were processed

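The deposited table holds, for each Ensembl gene, the authors' raw read counts and FPKM for 3 Sham samples and 3 columns headed Model, the word the labels use for the ischemic rat. Total RNA went through a stranded TruSeq library kit. The submitters' processing notes name STAR and HTSeq without versions, and the genome build is not given in the sources used here. The authors' FPKM of genes without counts is a placeholder of 1e-04. It was read as 0 in the levels given and in the permutation tests. The limma fits, the limit on mean FPKM and the check for overlap of the groups kept it. The replicates are separate samples by their titles, and whether each is 1 animal is not stated, so p-values measure the spread between these samples.

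Counts were tested with edgeR 4.0.16 (TMM scaling, quasi-likelihood, 2 groups, R 4.3.3) for the 13964 genes whose FPKM averaged 0.5 or more, and p-values were adjusted by Benjamini-Hochberg over all of them. limma 3.58.1 on log2(FPKM + 0.1) and DESeq2 1.42.0 were alternatives, beside other scalings, filters, pseudocounts (1 and 0.01), a replicate block, an atrial covariate and fits without single samples. Exact permutation tests used log2(FPKM + 0.1). Scripts were tested on simulated data. Depth gives a floor of 3 counts, which covers counting error only.

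The 8 genes and all lists were chosen with earlier results of these data known. Named genes are the 8, up to 4 passed genes of each list by size of the log2 fold change or, where none passed, the 2 of highest mean FPKM, and the 5 most like S100a9. Prtn3, Ltf, Scgb1a1, Scgb3a2, Sftpa1, Sftpc, Arhgap45, Lpo, Serpinb1a, Pglyrp1, Cd177, Cebpa, Irf8 and the genes drawn only in plots were named after their values were seen. So were Mrc1, C1qa, C1qc, Pf4, S100b, S100a10, S100a11, Qpct, G0s2, Ncf1 and Cxcr1. Of the list symbols 10 were not matched in the table and are not analysed here, and S100pbp of the S100 list, which is no S100 gene, was left out of that family's count. Of the surface markers 1 is in the counts but is neither named nor drawn here. Sequences are from RefSeq, rat assembly GRCr8, and were not joined to the table's coordinates. Plots used Python 3.11.15 and matplotlib 3.10.9.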

Additional observations from a re-analysis of the deposited data

How the results depend on the processing

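The log2 fold changes of the 7 tested genes kept their sign in all alternatives run, with ranges of 5.66 to 7.72 for S100a8, 4.94 to 7.29 for S100a9, 4.31 to 12.1 for Retnlg, 4.61 to 6.71 for Lcn2, 1.32 to 9.97 for Camp, -11.3 to -0.94 for Mpo and 1.24 to 11 for Elane. S100a8, Retnlg and Lcn2 passed in 12 of 19 alternatives and S100a9 in 11 of 18. Camp passed with DESeq2 (adjusted p 0.0134). DESeq2 gave no adjusted p for S100a9 and Elane.

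The number of the 8 genes that rose (4) and of other granule and surface genes that rose (16) was 0 for both with the atrial covariate (2497 genes of unadjusted p under 0.05, log2 fold changes of 5.91 for S100a8, 5.52 for S100a9, 11.59 for Retnlg and 5.92 for Lcn2), and 0 for both without sham replicate 1 and ischemia replicate 1 together (4177), with 0 genes of the whole table higher or lower in each of these fits. Leaving out 1 sample gave 0 to 4 of the 8 genes, 0 to 20 of the other genes, and 0 to 1490 higher and 0 to 1115 lower genes of the whole table (723 and 214 with all samples). DESeq2 called 2071 genes higher and 1742 lower, total counts as scaling 83 lower and no filter 93 lower. Of the called genes 77.2% were higher, against 54.3% with DESeq2 and 57.2% without ischemia replicate 1. The cause of these shifts was not tested.

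The labels number the replicates alike in both groups. Deviations of same-numbered samples from their group means correlated at -0.0660, -0.141 and -0.180, with a mean of -0.129. Samples of different numbers had a mean of 0.0592. With 3 samples per group these values cannot decide whether the numbers pair the samples. With the replicate block, edgeR passed 0 of the 8 genes, 0 of the other granule and surface genes and 0 higher or lower genes of the whole table, with 3349 at an unadjusted p under 0.05. The log2 fold changes were then 6.74 for S100a8, 6.10 for S100a9 and 11.9 for Retnlg (edgeR adjusted p 0.0943 each) and 5.80 for Lcn2 (0.109).

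Depth limits Ngp, Camp and Elane, which had under 50 counts in at least 5 of the 6 libraries, and the spread among the sham samples limits Mpo. The 3 samples of each group limit the rest.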

Other observations

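Of 9 transcription factors listed for myeloid cells 7 were tested, 5 rose and 0 fell, with a median log2 fold change of 2.75. Of all tested genes 5.18% rose and 1.53% fell by edgeR. The list is not restricted to factors of granulocytes. Cebpe reached the limit of 0.5 FPKM through the ischemia samples alone, and Cebpa, with a log2 fold change of 0.0061 (edgeR adjusted p 0.996), and Irf8, with 1.74 (0.0510), did not pass. Cebpe, which drives the secondary granule stage, had 0.06 to 0.09 FPKM in sham and 0.81, 3.55 and 1.72 FPKM in ischemia, with a log2 fold change of 4.64 ± 0.65 (edgeR adjusted p 0.0291). Runx1, Spi1 (the PU.1 gene) and Cebpd had log2 fold changes of 2.97 ± 0.52, 2.76 ± 0.45 and 2.75 ± 0.28 (edgeR adjusted p 0.0361, 0.0339 and 0.0246). Cebpd had 9.25 to 13.1 FPKM in sham and 100.4, 101 and 50.6 FPKM in ischemia, so that ischemia replicate 2 did not stand above replicate 1 as it did for S100a8 and S100a9.

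Among inhibitors of elastase and related proteases, 1 of 3 tested rose, against 5.18% of all tested genes. Slpi, the secretory leukocyte protease inhibitor that blocks neutrophil elastase, had 0.33, 5.01 and 1.46 FPKM in sham and 198, 876 and 239 FPKM in ischemia, with a log2 fold change of 7.32 ± 1.33 (edgeR adjusted p 0.0379). Its mean in ischemia was 438 ± 380 FPKM (SD, n = 3), and that of Elane, whose counts are uncertain, was 2.61 ± 4.06 FPKM. These are levels of RNA, and the balance of the proteins was not measured. Serpinb1a, an intracellular inhibitor of the same protease, had a log2 fold change of 2.80 ± 0.79 (edgeR adjusted p 0.0765).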
